A study of Rattus norvegicus with 12 samples.

Results

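The collagens and the enzymes that cross-link, cut and protect the extracellular matrix were followed in the left ventricle of aged rats with different lifelong activity. Members were all probe sets (groups of short probes for 1 transcript) whose only gene symbol names a collagen chain (Col), a matrix metalloproteinase (Mmp), a tissue inhibitor of metalloproteinases (Timp), an ADAMTS protease (Adamts) or a lysyl oxidase (Lox, Loxl). The rule reads names only, but it was drawn up with earlier results of these data known. It gave 111 probe sets of 78 genes among 31042 probe sets without array controls. Of these, 65 probe sets of 47 genes lay in the upper 60% of all probe sets by mean level and were tested. The other 46 probe sets left 31 genes without a tested value. The tested genes comprised 7 of 11 fibrillar collagens, 5 of 7 basement membrane collagens, 10 of 23 other collagens, 7 of 17 metalloproteinases, all 4 tissue inhibitors, 10 of 12 ADAMTS proteases and all 4 lysyl oxidases.

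Collagens are triple helices of 3 chains. Fibrillar types carry tension around heart muscle cells, type IV forms the sheet of basement membranes, and lysyl oxidases link the chains covalently after secretion. Metalloproteinases cleave collagens and other matrix proteins, the tissue inhibitors bind and block them, and several ADAMTS proteases cut proteoglycans or trim procollagen. In the heart these genes are known as products mainly of fibroblasts, vessel cells and leukocytes, and interstitial collagen is known to accumulate with age.

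All animals were female Sprague-Dawley rats aged 16 months. EX rats could exercise voluntarily throughout life, PA rats spent 1 h in a large box 2 times a week, and SED rats stayed in a standard cage. Each group had 4 arrays of pooled left ventricle RNA. The design text names 12 animals a group and 4 per pool, which makes 3 arrays and not 4, so the animals behind each array are unsettled and p-values measure the spread between these arrays only. Values are log2 intensities, differences are on the log2 scale, and an error after ± is a standard error from the limma fit unless it is named SD.

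The array SED 1 stood apart. Its mean correlation with the other arrays was 0.964, against 0.987 to 0.989 for the rest. The middle 50% of its values spanned 3.58 log2 units, against 3.73 to 4.04. Its GAPDH control probe sets differed by 1.56 between the 3' and 5' ends, against 0.96 to 1.35, and those of beta-actin by 1.70, against 1.37 to 1.67. Heart muscle markers were bright and even, with Myh6, the alpha myosin heavy chain, between 13.11 and 13.22 on all arrays. The 8 tested of 9 fibroblast markers averaged -0.37 relative to their own 12-array mean on SED 1 and -0.05 to 0.11 on the other arrays. Decorin (Dcn) read 10.25 on SED 1 and 10.96 to 11.24 elsewhere, whereas Pdgfra, a receptor that marks fibroblasts, read highest on SED 1 at 12.08. Ddr2 read 6.97 on SED 1 and 8.06 to 8.63 elsewhere, and Lum 9.83 against 10.25 to 10.68. Vim and Tcf21 were also lowest there, at 11.42 and 5.34, while Gsn at 11.94 and Dpt at 11.51 lay within the range of the other arrays. Dcn and Lum are also in the list of proteoglycans below, so those lists are not independent. The part of these differences in the results was not tested. Wherever leaving out SED 1 turned the sign of a difference from SED, or moved it or the median of a class or list by over 1.5 times, the value without that array stands beside it. In pooled tissue, fewer cells of a type and less RNA per cell cannot be told apart.

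No member had an adjusted p under 0.05 by limma's moderated test with Benjamini-Hochberg adjustment over the 18626 tested probe sets. This does not show that no member changed. In EX against SED, 0 of 47 member genes had an adjusted p under 0.05, against 0% of all 10244 tested genes, and the smallest adjusted p over the 65 member probe sets was 0.134. At an unadjusted p under 0.05 there were 8 of 47, or 17.0%, against 12.9% of all genes. Of these, 5 had a higher mean in EX, against 6.97% of all genes, and 3 a lower one, against 5.95%. The 4 EX and 4 SED arrays did not overlap for 4 member genes, 8.51% against 6.76%. The unadjusted count moved to 2 without EX 3, to 3 without EX 4, and to 5 when PA 1, PA 4, SED 2 or SED 4 was left out. No share of all genes was counted for these omissions. Without SED 1 the unadjusted count was 7, against 12.2% of all genes. Of these, 2 were higher in EX, against 6.21%, and 5 lower, against 6.02%. The adjusted count without SED 1 was 0, against 0.00976% of all genes.

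In PA against SED, 0 of 47 member genes had an adjusted p under 0.05, against 0% of all genes, with a smallest adjusted p of 0.209. Only Adamts9 had an unadjusted p under 0.05, which is 2.13% of the members against 12.5% of all genes. The PA and SED arrays did not overlap for Adamts9 and Timp4, 2 of 47 or 4.26%, against 6.89%. Without SED 1 the unadjusted count was 2, against 10.1% of all genes. It was 5 without SED 3, 3 without PA 3, and 2 when PA 1, PA 2, SED 2 or SED 4 was left out. For these omissions, too, no share of all genes was counted. In EX against PA the adjusted count was again 0, against 0%, and Mmp17 alone passed the unadjusted limit, against 2.53% of all genes. It was also the 1 member without overlap between EX and PA, against 2.73%. The unadjusted count was 2 when EX 3, PA 2 or PA 4 was left out, again with no share of all genes counted. The first 2 comparisons share the SED arrays, so their directions are not independent of each other.

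Means leaned the same way as those of the whole array. In EX, 31 of 47 member genes had a higher mean than in SED, against 56.9% of all genes, with a median difference of 0.105, against 0.0325 over all genes. In PA, 33 had a higher mean, 13 a lower one and Col3a1 the same, against 59.7% of all genes higher, with a median of 0.1025, against 0.0475. SED 1 was the lowest of the 12 arrays for 19 of 47 member genes, or 40.4%, and for 33.6% of all genes. Without it, 29 members were higher in EX, against 53.5% of all genes, with a median of 0.0475. In PA 27 were higher, against 59.1%, with a median of 0.04. EX against PA gave 23 higher and 24 lower, against 44.1% of all genes higher, with a median of -0.0025.

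**Figure D1:**
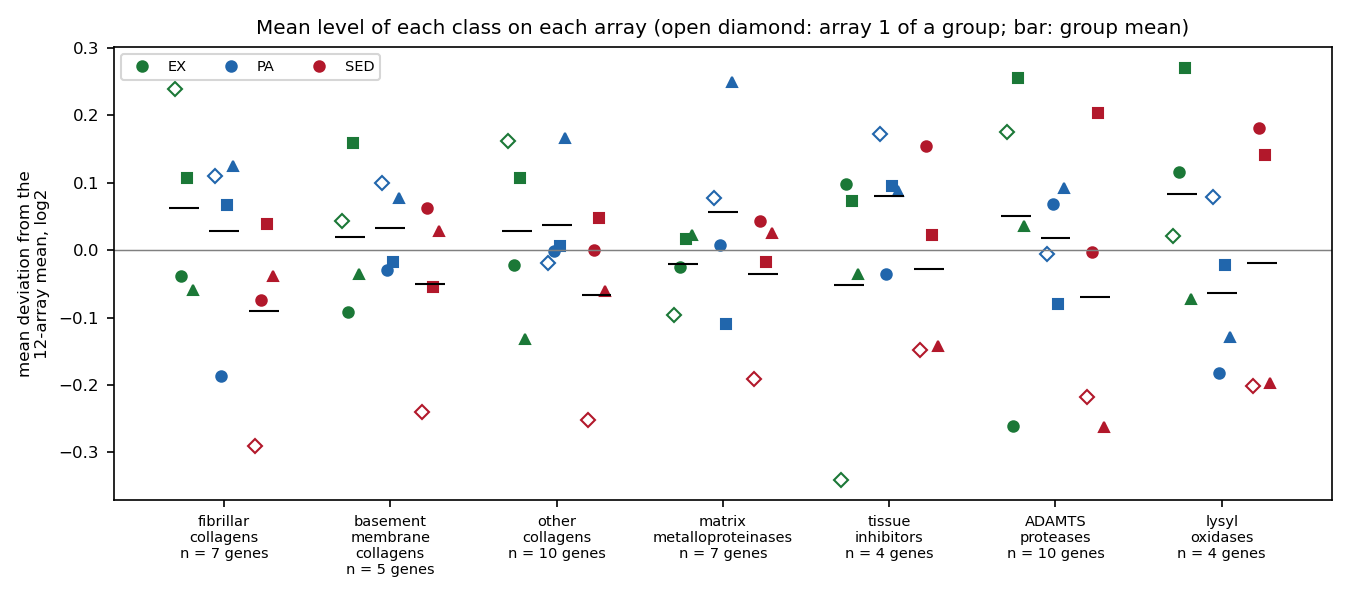
Mean level of each class of members on each array, as the deviation from the 12-array mean in log2 units, by group (colour) with the group mean as a bar and array 1 of each group as an open diamond. SED 1 is the lowest SED array in 6 of the 7 classes, with ADAMTS proteases as the exception, and the arrays of the 3 groups overlap in all 7 classes.

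Of the 7 tested fibrillar collagen genes, 6 had a higher mean in EX than in SED, with a median difference of 0.18, or 6 and 0.0825 without SED 1. In PA, 5 were higher, with a median of 0.1025, or 4 and 0.045 without SED 1. None of the 7 had an unadjusted p under 0.05 in either comparison.

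Col1a1 and Col1a2 encode the chains of type I collagen, the main fibril of the heart. Col1a1 read 10.01, 9.89, 9.92 and 9.67 in EX, 10.14, 9.88, 9.93 and 10.14 in PA, and 10.29, 9.90, 10.19 and 10.06 in SED. The highest array was SED 1 and the lowest EX 4, and the groups overlapped. The EX difference from SED was -0.24 ± 0.11 (adjusted p 0.345) and that of PA -0.0875 ± 0.115, or -0.18 and -0.0275 without SED 1. Col1a2 read 9.62, 9.37, 9.65 and 9.21 in EX, 9.68, 9.09, 9.36 and 9.37 in PA, and 8.98, 9.42, 9.56 and 9.17 in SED. Here SED 1 was the lowest array of all, the reverse of its place for Col1a1. The Col1a2 difference was 0.18 ± 0.16 in EX (adjusted p 0.613), and 0.079 without SED 1. At these probe sets the 2 chains of this collagen thus had EX differences of opposite sign, neither beyond the spread of the arrays. A second Col1a1 probe set gave -0.0375 ± 0.152 in EX and 0.0975 ± 0.152 in PA, or -0.0083 and 0.13 without SED 1. A second Col1a2 probe set gave 0.34 ± 0.18 in EX and 0.38 ± 0.18 in PA, or 0.16 and 0.20 without SED 1.

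Col3a1, the chain of type III collagen that is laid down with type I, was among the steadiest members. It read 11.34, 11.26, 11.25 and 11.08 in EX, 11.23, 11.07, 11.19 and 11.02 in PA, and 11.06, 11.15, 11.34 and 10.96 in SED. The 3 groups overlapped over most of their range, with a difference of 0.105 ± 0.103 in EX (95% interval -0.119 to 0.329). Col5a2, its neighbour in the genome with no protein-coding gene between them, had a difference of 0.15 ± 0.11 in EX and 0.1025 in PA. Type V collagen, to which Col5a2 and Col5a1 belong, limits the width of type I fibrils. Col5a1 read 6.98, 7.31, 7.45 and 7.13 in EX, 7.29, 6.87, 7.06 and 7.33 in PA, and 6.38, 6.68, 7.34 and 6.96 in SED. SED 1 and SED 2 lay below all arrays of the other groups, while SED 3 lay near their top. The EX difference was 0.38 ± 0.19 (adjusted p 0.373), and 0.22 without SED 1. A second Col5a1 probe set gave -0.14 ± 0.13 for the same comparison, and -0.24 without SED 1.

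Of the 5 tested basement membrane collagen genes, 4 had a higher mean in EX and in PA than in SED, with medians of 0.115 and 0.0975. Without SED 1, 3 were higher in EX and 2 in PA, with medians of 0.00083 and -0.0017. Col15a1 and Col18a1 encode collagens that join basement membranes to the surrounding matrix. Col15a1 read 10.76 on SED 1 and 11.21 to 11.50 on the other 11 arrays, and its EX difference of 0.14 ± 0.13 became 0.00083 without that array. Col18a1 read 6.79 on SED 1 and 7.18 to 7.61 on the other arrays, and its EX difference of 0.16 ± 0.16 became 0.0017. At these probe sets the higher EX mean of both genes came with that 1 array. A second, dimmer Col15a1 probe set had an EX difference of 0.36 ± 0.19, and 0.175 without SED 1.

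Col4a1 and Col4a2 encode the chains of the common type IV collagen and are read in opposite directions from start sites close together. The stretch between their starts is shown because this pair shares it. It has 76 bases at chr16:84885521-84885596 in the RefSeq annotation of build GRCr8, written on the plus strand, with a GC content of 78.9%. The capitals mark a match to GGGCGG on the other strand, the motif known as a GC box. The stretch holds no TATAAA.
Col4a2-Col4a1: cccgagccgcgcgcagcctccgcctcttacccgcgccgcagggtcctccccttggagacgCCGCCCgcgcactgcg

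Col4a1 read 8.80, 8.50, 9.05 and 8.56 in EX, 9.0, 8.72, 8.77 and 8.79 in PA, and 8.55, 8.92, 8.47 and 8.95 in SED. Col4a2 read 10.73, 10.87, 11.03 and 10.88 in EX, 10.83, 10.78, 10.90 and 10.89 in PA, and 10.77, 10.84, 10.54 and 10.90 in SED. At these probe sets both genes were highest on EX 3 and lowest on SED 3, and the groups overlapped. The EX difference from SED was 0.005 ± 0.149 for Col4a1 and 0.115 ± 0.1 for Col4a2. The sign for Col4a1 was negative after quantile normalization or median centring and, at -0.0525, without SED 1. A second, dimmer Col4a1 probe set was highest on PA 4, at 7.86, and lowest on SED 1, at 7.20. Its EX difference was 0.165 ± 0.132, or 0.097 without SED 1.

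Of the 10 tested genes of other collagens, 6 had a higher mean in EX than in SED (median 0.045) and 8 in PA (median 0.18). Without SED 1 the counts were 5 and 7, with medians of 0.027 and 0.085. Col25a1, a collagen held in the cell membrane, had the largest difference of any member in EX. It read 6.21, 6.26, 6.70 and 6.27 in EX, 5.90, 5.97, 5.43 and 6.74 in PA, and 5.04, 5.59, 6.01 and 6.15 in SED. All EX arrays lay above all SED arrays, by 0.06 at the nearest pair, and PA spanned both. The EX difference was 0.66 ± 0.28 (adjusted p 0.287), and 0.44 without SED 1 (adjusted p 0.494).

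Col8a1, a short-chain collagen of vessel walls, went the other way. It read 5.52, 5.76, 5.45 and 5.37 in EX, 5.61, 5.21, 6.07 and 5.66 in PA, and 5.77, 6.15, 6.05 and 5.71 in SED. The EX arrays lay at or below the lower SED arrays, with 1 EX array inside the SED range. The difference was -0.395 ± 0.172 in EX (adjusted p 0.298) and -0.28 ± 0.17 in PA, and both were larger without SED 1, at -0.445 and -0.33.

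Type VI collagen forms beaded filaments near cells from the products of Col6a1, Col6a2 and Col6a3 or a related chain such as that of Col6a6. Its genes did not share a direction. In PA the differences from SED were -0.24 ± 0.15 for Col6a1, 0.18 ± 0.12 for Col6a2 and 0.25 ± 0.16 for Col6a6, with adjusted p of 0.447 to 0.466. Col6a1 and Col6a2 lie next to each other in the genome. On SED 1, Col6a1 had its highest value of the 12 arrays, 9.45, and Col6a2 its lowest, 7.65. Without SED 1 the PA differences were -0.13 for Col6a1, 0.098 for Col6a2, 0.076 for Col6a3 and 0.18 for Col6a6. A second Col6a2 probe set gave 0.32 ± 0.25 in PA, or 0.036 without SED 1. In EX against PA, Col6a3 had the second smallest p of the members, with -0.2875 ± 0.17 (adjusted p 1).

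Of the 4 lysyl oxidases, the cross-linking enzymes, 3 had a higher mean in EX than in SED and 1 in PA, with medians of 0.0925 and -0.094. Without SED 1, 3 were higher in EX and 2 in PA, with medians of 0.13 and -0.055. Loxl1, which is needed for elastic fibres, read 6.89, 6.98, 7.15 and 6.65 in EX, 6.86, 6.46, 6.62 and 6.72 in PA, and 5.79, 6.95, 6.74 and 6.22 in SED. SED 1 and SED 4 were the 2 lowest arrays, and SED 2 and SED 3 lay among EX. The EX difference was 0.49 ± 0.22 (adjusted p 0.308), and 0.28 without SED 1. Lox, the founding member, had a difference of 0.03 ± 0.16 in EX and -0.14 ± 0.16 in PA at its brighter probe set. A second Lox probe set read 5.10 on SED 1 and 6.97 to 7.77 on the other arrays, and its difference was 0.54 ± 0.44 in EX and 0.565 ± 0.441 in PA. Without SED 1 these became -0.04 ± 0.16 and -0.0175 ± 0.164, so both higher means came with that array. Loxl2 read 6.01 on EX 3 and 5.26 to 5.32 on the other EX arrays, and its EX difference was 0.155 ± 0.238. Loxl3, a further cross-linking enzyme, had the lower mean in both groups, with -0.265 ± 0.155 in EX and -0.23 ± 0.15 in PA, and -0.37 and -0.34 without SED 1 (adjusted p 0.285 and 0.382).

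**Figure D2:**
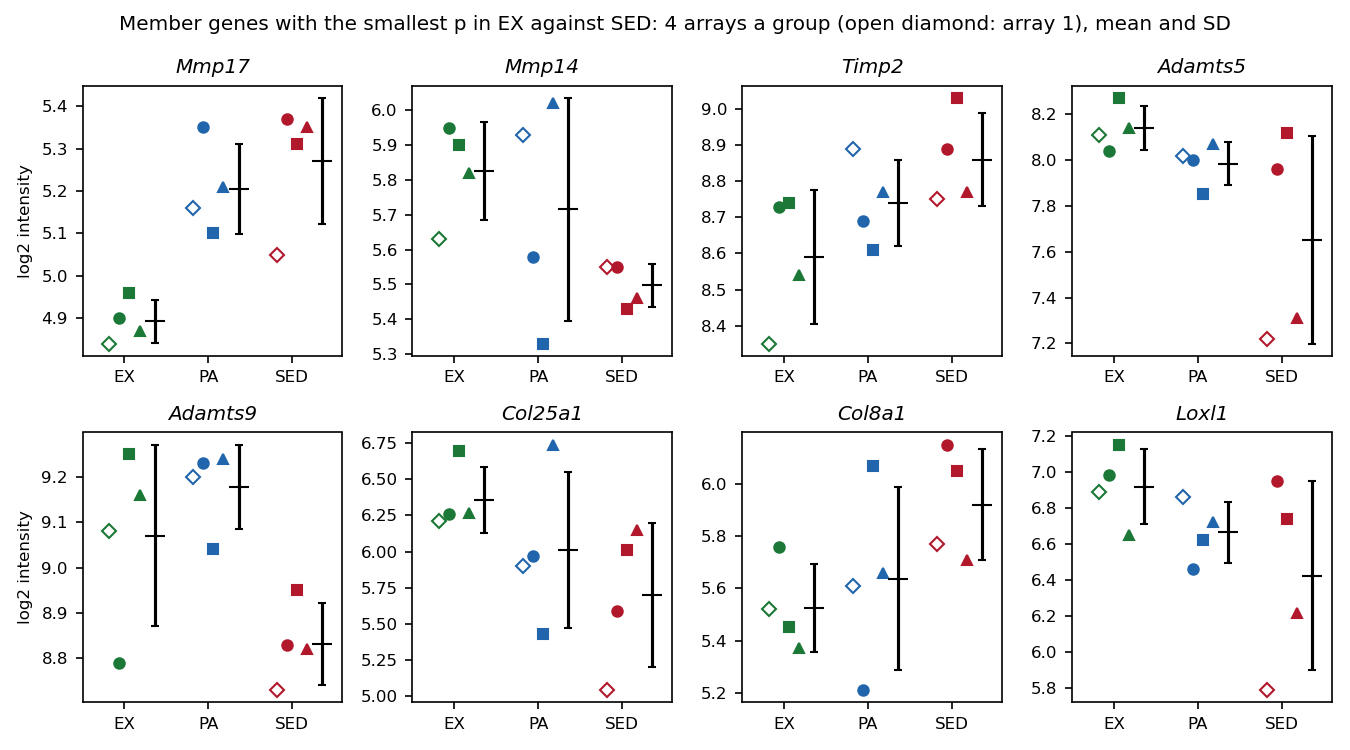
Log2 intensity of the 8 member genes with the smallest p in EX against SED, 4 arrays a group (points, array 1 as an open diamond) with the mean and SD beside them. Mmp17 is lowest on the 4 EX arrays, from 4.84 to 4.96, while for Adamts5 and Loxl1 SED 1 and SED 4 are the 2 lowest arrays and the other 2 SED arrays lie among the rest.

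Of the 7 tested metalloproteinase genes, 4 had a higher mean in EX than in SED (median 0.0825) and 6 in PA (median 0.0525). Without SED 1 there were 4 in EX (median 0.055) and 4 in PA (median 0.14). In EX against SED, 2 of the 7 had an unadjusted p under 0.05, against 12.9% of all genes. There were 4 without SED 1, against 12.2% of all genes. Mmp17, which encodes a protease held on the cell surface by a lipid anchor, had the smallest p of all members. It read 4.84, 4.90, 4.96 and 4.87 in EX, 5.16, 5.35, 5.10 and 5.21 in PA, and 5.05, 5.37, 5.31 and 5.35 in SED. All 4 EX arrays lay below all 8 others, and PA and SED overlapped. The difference from SED was -0.38 ± 0.095 in EX (adjusted p 0.134) and -0.065 ± 0.095 in PA, or -0.14 in PA without SED 1. Tested directly, EX against PA gave -0.31 ± 0.095 (adjusted p 1). Without SED 1 the EX difference was -0.45 (adjusted p 0.0974). The adjusted p ranged from 0.0544 with array weights to 0.323 with only the 2 groups fitted. Its 12-array mean of 5.12 was close to the filter at 4.94, so this is a dim probe set and the stricter filter left it out.

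Mmp14 encodes a membrane-bound collagenase that also activates the gelatinase made from Mmp2. Its brighter probe set read 5.63, 5.95, 5.90 and 5.82 in EX, 5.93, 5.58, 5.33 and 6.02 in PA, and 5.55, 5.55, 5.43 and 5.46 in SED. All EX arrays lay above all SED arrays, and PA held both the highest and the lowest value. The EX difference was 0.33 ± 0.14 (adjusted p 0.299). The second Mmp14 probe set read 5.05, 5.05, 4.70 and 4.94 in EX and 5.45, 5.0, 5.26 and 5.13 in SED. Its difference was -0.275 ± 0.118, of about the same size and the opposite sign, so the direction for Mmp14 depends on the probe set. Mmp2 read 8.61, 8.66, 8.90 and 8.61 in EX, 9.01, 8.74, 8.68 and 8.94 in PA, and 8.53, 8.50, 8.98 and 8.44 in SED. SED 3 alone lay high in its group, and the PA difference was 0.23 ± 0.13 (adjusted p 0.424).

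Mmp15, which encodes another membrane-bound protease, was the tested metalloproteinase whose differences moved most when SED 1 was left out. It read 7.48, 7.17, 7.74 and 7.70 in EX, 7.97, 7.82, 7.52 and 8.16 in PA, and 6.89, 8.12, 7.74 and 8.25 in SED. SED 1 was the lowest of the 12 arrays, while SED 4 was the highest. The difference was -0.23 ± 0.26 in EX and 0.12 ± 0.26 in PA, and -0.51 ± 0.18 (adjusted p 0.251) and -0.17 ± 0.18 without SED 1.

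The other 10 metalloproteinase genes had no tested probe set, among them Mmp3, Mmp9 and the collagenases Mmp8 and Mmp13. Their probe sets had means of 2.95 to 4.17. Mmp9, the gelatinase of leukocytes, read 3.53 to 4.35 at 1 probe set and 2.95 to 3.84 at the other. Several of these genes are known as inducible, and the promoters of 5 of them are shown because they share 2 elements not found in the 4 promoters at hand of tested metalloproteinases. The window is the 100 bases before the start in RefSeq's GRCr8 annotation, all on the plus strand of chromosome 8. Capitals mark TGANTCA (the AP-1 motif, searched on both strands) and TATAAA (the TATA box). The windows are chr8:12925181-12925280 for Mmp3, chr8:12974607-12974706 for Mmp10, chr8:12866552-12866651 for Mmp12, chr8:12782729-12782828 for Mmp13 and chr8:13132943-13133042 for Mmp7.
Mmp3: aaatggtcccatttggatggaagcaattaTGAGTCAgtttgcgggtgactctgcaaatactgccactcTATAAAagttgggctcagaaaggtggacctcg
Mmp10: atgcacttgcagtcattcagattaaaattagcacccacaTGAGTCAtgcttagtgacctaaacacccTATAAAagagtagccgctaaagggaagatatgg
Mmp12: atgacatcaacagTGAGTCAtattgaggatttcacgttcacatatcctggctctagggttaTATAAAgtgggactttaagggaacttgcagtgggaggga
Mmp13: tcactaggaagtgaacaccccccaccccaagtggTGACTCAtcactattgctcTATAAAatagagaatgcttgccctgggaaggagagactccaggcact
Mmp7: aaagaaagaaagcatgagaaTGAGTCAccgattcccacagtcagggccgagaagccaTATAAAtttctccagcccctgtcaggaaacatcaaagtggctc

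In each of the 5 windows the AP-1 motif begins 61 to 87 bases, and the TATA box 32 to 47 bases, before the start. In the full 250 bases before the start, TGANTCA was found in 5 of 7 promoters of untested metalloproteinases and in 0 of 4 of tested ones (Mmp11, Mmp15, Mmp23 and Mmp24). It was found in 6 of the 56 member promoters at hand, or 10.7%, the sixth being Col6a1, and in 6.36% of all 27457 promoters. TATAAA, on either strand, was found in 6 of the 7 untested metalloproteinase promoters, 0 of the 4 tested, 23.2% of member promoters and 13.1% of all. GGGCGG showed the opposite pattern, with 1 of 7 and 4 of 4, and was in 51.8% of member promoters and 32.4% of all. These matches describe letters in a window only.

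Of the 4 tissue inhibitor genes, 2 had a higher mean in EX than in SED and 3 in PA, with medians of 0.005 and 0.14. Without SED 1 the counts were the same and the medians -0.08 and 0.051. Timp2, whose protein also takes part in the activation of the Mmp2 product, read 8.35, 8.73, 8.74 and 8.54 in EX, 8.89, 8.69, 8.61 and 8.77 in PA, and 8.75, 8.89, 9.03 and 8.77 in SED at its brighter probe set. All EX arrays lay below all SED arrays, by 0.01 at the nearest pair, with PA between them and overlapping both. The EX difference was -0.27 ± 0.11 (adjusted p 0.276). The dimmer Timp2 probe set read 5.40, 5.62, 5.54 and 5.12 in EX, 4.99, 5.28, 5.43 and 4.83 in PA, and 4.8, 5.19, 5.25 and 4.68 in SED. Its difference in EX was 0.44 ± 0.17, again of opposite sign.

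Timp4, a further inhibitor, read 8.35, 8.38, 8.49 and 8.52 in PA and 8.30, 8.26, 7.74 and 8.32 in SED. All PA arrays thus lay above all SED arrays. In EX, Timp4 read 7.72, 8.63, 8.32 and 8.62. SED 3 and EX 1 were the 2 low arrays, and the PA difference was 0.28 ± 0.195 (adjusted p 0.499). Without SED 3 it was 0.14, and without SED 1 it was 0.33. Timp1, the inducible inhibitor, read from 5.63 on SED 1 to 6.79 on PA 1, with differences of -0.025 ± 0.261 in EX and 0.235 ± 0.261 in PA, or -0.19 and 0.073 without SED 1. Timp3, which binds to the matrix, was the steadiest member at its brightest probe set. Its pooled SD there was 0.0793 between arrays of a group, with a difference of 0.035 ± 0.083 in EX (95% interval -0.146 to 0.216). A dimmer Timp3 probe set had a difference of 0.305 ± 0.140 in EX and 0.37 ± 0.14 in PA. The third gave 0.10 ± 0.099 in EX and 0.16 ± 0.099 in PA, or 0.033 and 0.091 without SED 1. A further probe set, too dim to be tested, read 4.86, 4.76, 4.83 and 4.97 in EX, 4.84, 4.38, 4.74 and 4.62 in PA, and 4.32, 4.26, 4.44 and 4.05 in SED. There all EX arrays lay above all SED arrays, by 0.59 on average, and it was the 1 untested member probe set of which this holds, 2.17% of 46 against 0.757% of all untested probe sets. For 6 others, or 13% against 9.91%, all EX arrays lay below all SED arrays, by 0.22 to 0.48 on average. These were probe sets of Col11a1, Col17a1, Col20a1, Col23a1, Col6a5 and Mmp23. Without SED 1 the difference was -0.30 in place of -0.48 for Col11a1, and -0.25 in place of -0.38 for Mmp23. Both directions together made 7 of 46, or 15.2%, against 10.7%. Other probe sets of 2 of these genes did not show this. The tested Mmp23 probe sets had EX differences of 0.0825 and -0.015, or -0.098 and -0.021 without SED 1. The other Col11a1 probe sets, also untested, had -0.1675 and 0.0225, or -0.21 and -0.013 without SED 1. At all of these the EX and SED arrays overlapped.

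Of the 10 tested ADAMTS genes, 6 had a higher mean than SED in EX and in PA, with medians of 0.20 and 0.15, or 0.125 and 0.034 without SED 1, when 6 were higher in EX and 5 in PA. Adamts5 and Adamts4 encode aggrecanases, which cut large proteoglycans, and Adamts1 and Adamts9 encode related versican-cutting enzymes. Adamts9 read 9.08, 8.79, 9.25 and 9.16 in EX, 9.20, 9.23, 9.04 and 9.24 in PA, and 8.73, 8.83, 8.95 and 8.82 in SED. All PA arrays lay above all SED arrays, and EX 2 alone of the EX arrays lay within the SED range. The difference was 0.345 ± 0.108 in PA (adjusted p 0.209) and 0.24 ± 0.11 in EX (adjusted p 0.317). Without SED 1 it was 0.31 in PA (adjusted p 0.304) and 0.20 in EX, so both differences kept their direction without that array.

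Adamts5 read 8.11, 8.04, 8.27 and 8.14 in EX, 8.02, 8.0, 7.85 and 8.07 in PA, and 7.22, 7.96, 8.12 and 7.31 in SED. SED 1 and SED 4 lay well below all other arrays, and SED 2 and SED 3 lay among them. The difference was 0.49 ± 0.18 in EX (adjusted p 0.231) and 0.33 ± 0.18 in PA, and 0.34 and 0.19 without SED 1. Its second probe set gave 0.49 ± 0.19 in EX, and 0.47 without SED 1, so both probe sets had the same direction. Adamts1 lies next to Adamts5 in the genome and had negative differences, -0.28 ± 0.19 in EX and -0.32 ± 0.19 in PA. It was highest on SED 1, at 8.94 against 7.72 to 8.41 elsewhere, and without that array the differences were -0.10 and -0.14. Adamts4 read from 5.14 to 6.61 within SED alone, and its EX difference was 0.45 ± 0.30, or 0.24 without SED 1. Adamts19 read 8.90, 8.87, 8.81 and 8.90 in PA and 8.13, 8.30, 8.62 and 9.15 in SED, so that SED spanned the narrow PA range. Its PA difference was 0.32 ± 0.18 (adjusted p 0.414), and 0.18 without SED 1.

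**Figure D3:**
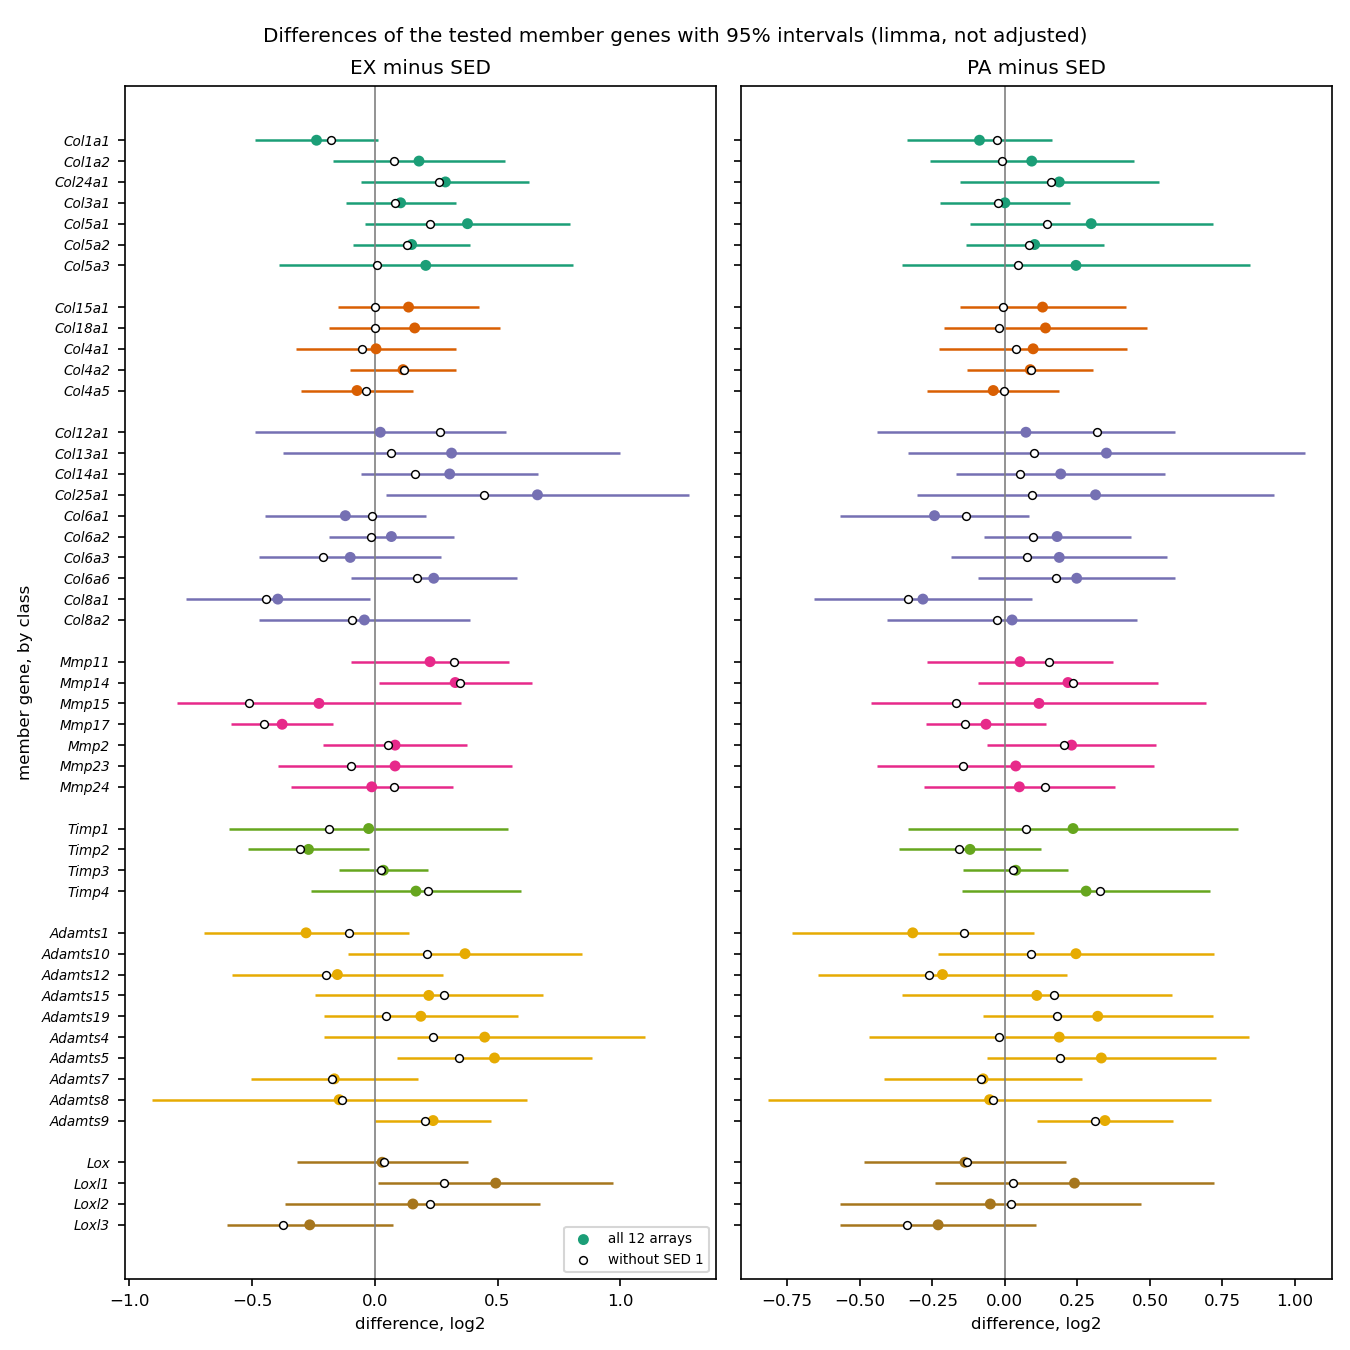
Difference of each of the 47 tested member genes from SED in log2 units, for EX (left) and PA (right), with all 12 arrays (filled points with unadjusted 95% limma intervals) and without SED 1 (open points), ordered and coloured by class. In EX the intervals of 8 genes leave out 0, and in PA that of Adamts9 alone.

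Several genes had more than 1 tested probe set, and these served as an internal comparison. Among 16 such genes, the sign of the difference from SED was not the same at all probe sets for 6 genes in EX and 6 in PA, or 7 and 6 without SED 1. Mmp14, Timp2 and Col5a1 were among those that disagreed in EX. Mmp14, Timp2 and Col5a1 also disagreed without SED 1, in EX and in PA. Adamts5 and Col5a2 had the same sign at both probe sets in both comparisons, with and without SED 1. The files do not say which part of a transcript each probe set reads.

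**Figure D4:**
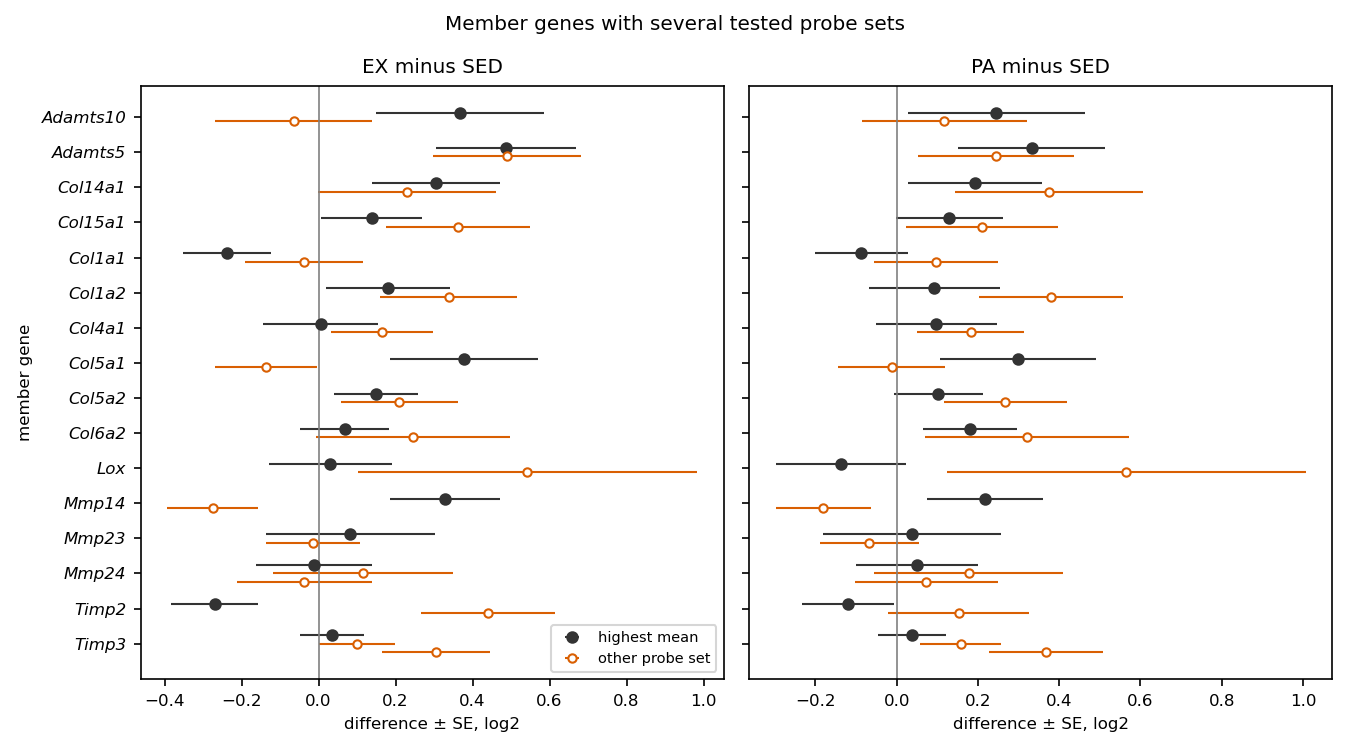
Difference ± SE from SED in log2 units, for EX (left) and PA (right), at each tested probe set of the 16 member genes with several; filled points are the probe set with the highest mean. Mmp14 and Timp2 have differences of opposite sign in EX, while both Adamts5 probe sets lie at 0.49.

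Members varied between arrays of a group about as much as other genes, with a median pooled SD of 0.237 against 0.209 over all tested genes. The standard error of a difference between groups had a median of 0.161 over the members. The most variable member was Adamts8, with a pooled SD of 0.558, and the steadiest were Timp3, Mmp17 at 0.11 and Col4a2 at 0.12. EX 3 was the highest of the 12 arrays for 10 of 47 members, or 21.3%, against 5.59% of all genes, and SED 4 was the lowest for 8, or 17.0%, against 9.59%.

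The 46 dim probe sets outside the test went the other way from the tested ones. Of these, 36 had a lower mean in EX than in SED, or 78.3%, against 75.2% of all untested probe sets, with a median difference of -0.1425, against -0.135. In PA 41 were lower, with a median of -0.1775, against -0.15, and no share of all untested probe sets was counted there. Without SED 1, 33 of 46 were lower in EX, against 70% of all untested probe sets, with a median of -0.075, against -0.091. In PA 37 of 46 were then lower, against 73.5%, with a median of -0.155, against -0.11. The members' medians thus had the same sign as those of the whole array at both low and high levels. With all 12 arrays, including all 78 genes without a filter turned the members' median to -0.01 in EX and -0.041 in PA.

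The matrix genes outside the members were compared in the same way. A list of 76 structural glycoproteins, proteoglycans, collagen-processing enzymes, other proteases and inhibitors, and fibrogenic signals had 56 tested genes, of which 0 had an adjusted p under 0.05 in any comparison. In EX against SED, 35 were higher, against 56.9% of all genes, and 21 lower, with a median of 0.0925. Of the 56, 5 had an unadjusted p under 0.05, against 12.9% of all genes. Of these 5, 1 was higher in EX, against 6.97% of all genes, and 4 were lower, against 5.95%. Without SED 1, 30 were higher, against 53.5% of all genes, and 26 lower, with a median of 0.023, and 7 had an unadjusted p under 0.05, against 12.2%. Of these 7, 2 were higher in EX, against 6.21%, and 5 lower, against 6.02%. The medians of the structural glycoproteins and of the collagen-processing genes then turned from 0.09 and 0.0625 to -0.039 and -0.019, and that of the proteoglycans from -0.025 to 0.058. With all arrays the smallest p was that of Tgfbr3, a co-receptor of the TGF-beta family. It read 5.60, 5.76, 5.60 and 5.84 in EX, 5.73, 5.84, 5.91 and 5.85 in PA, and 6.36, 6.12, 5.89 and 6.13 in SED. All EX arrays lay below all SED arrays, with a difference of -0.425 (adjusted p 0.134), and -0.35 without SED 1. P3h1, which hydroxylates collagen prolines, read 5.80, 6.01, 5.81 and 5.58 in EX, 6.00, 5.71, 5.59 and 5.79 in PA, and 6.54, 6.05, 6.14 and 6.35 in SED. All SED arrays lay above all arrays of both other groups, with differences of -0.47 in EX (adjusted p 0.154) and -0.50 in PA. Tgfb1, the TGF-beta ligand, had a difference of -0.19 in EX. Nid2, which bridges basement membrane networks, had 0.67 in PA, with SED 1 at 5.66 against 6.44 to 7.33 elsewhere, and 0.36 without SED 1.

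**Figure D5:**
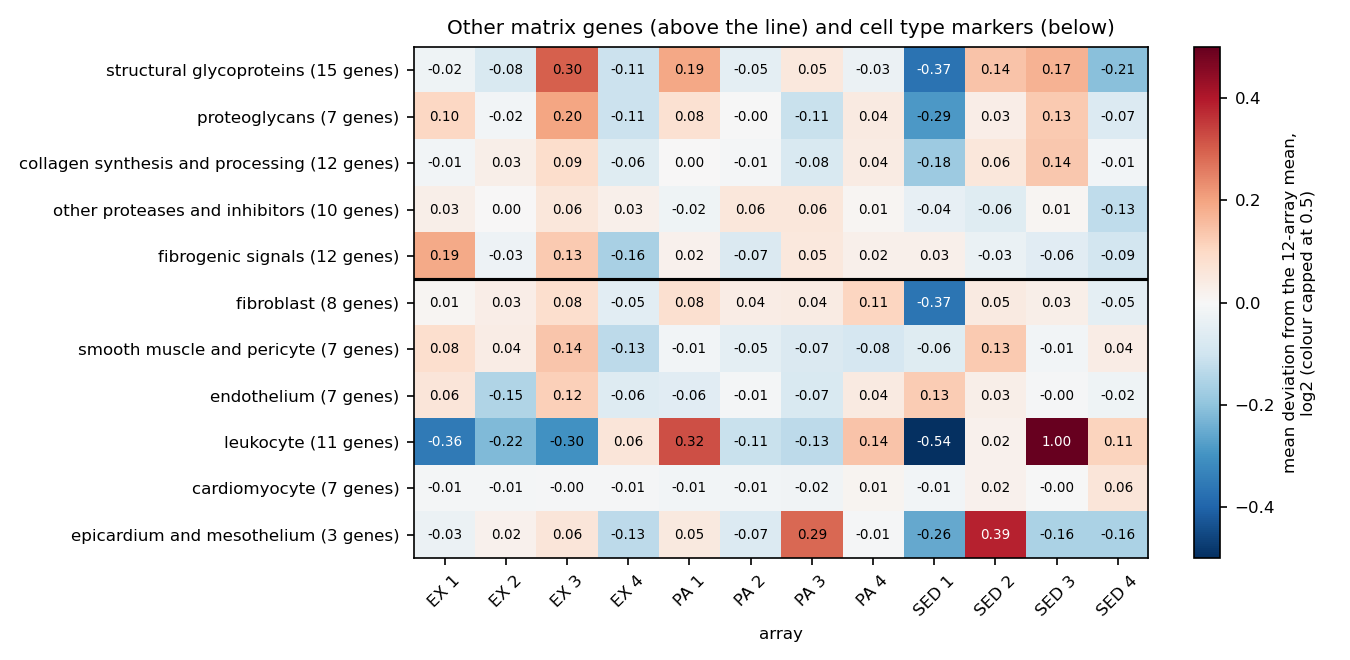
Mean deviation from the 12-array mean, in log2 units, of 5 lists of other matrix genes (above the line) and 6 lists of cell type markers (below) on each of the 12 arrays; red is above and blue below the mean, with colour capped. Structural glycoproteins, proteoglycans and fibroblast markers are lowest on SED 1, and leukocyte markers range from -0.54 on SED 1 to 1.00 on SED 3. Dcn and Lum are in both the proteoglycan and the fibroblast list.

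Markers of cells that make these proteins differed between arrays. The 11 leukocyte markers averaged 1.00 on SED 3 and -0.54 on SED 1, with -0.36 to 0.062 in EX and -0.13 to 0.32 in PA. In EX against SED 10 of the 11 had a lower mean, with a median of -0.2275, or 11 of 11 and -0.465 without SED 1. In PA 6 of the 11 were lower, with a median of -0.0625, or 9 of 11 and -0.31 without SED 1. The fibroblast list had 5 of 8 higher in EX with a median of 0.024, and 6 of 8 higher in PA with a median of 0.12. Without SED 1 these were 4 of 8 with -0.0038 and 5 of 8 with 0.056. The endothelium list had 2 of 7 higher in EX and in PA, with medians of -0.0775 and -0.085. Without SED 1, 3 of 7 were higher in each, with -0.0475 and -0.021. The smooth muscle and pericyte list had 3 of 7 higher in EX (median -0.0225) and 1 of 7 in PA (median -0.0825). Without SED 1 its counts were the same, with medians of -0.0125 and -0.095. Cardiomyocyte markers stayed between -0.017 and 0.059 on all arrays, at readings of 12.67 to 13.22. Whether values this high still follow the amount of RNA was not tested. The part of the marker shifts in the members' differences was not tested either.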

How the data were processed

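Left ventricle RNA (6 µg per array) was measured on Affymetrix rat arrays, per the labels' protocols. The deposited table holds log2 values for 31099 rows. Both MAS5 and RMA are named, with no role, per the submitters' processing notes, so the authors' background correction of these log2 values is not given in the sources used here. Values were used as deposited, since array medians lay between 5.64 and 5.72. No arrays held identical values.

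Groups came from titles and descriptions. The 57 control rows were left out. Of the rest, 20826 probe sets had 1 symbol, 436 several and 9780 none, and only the first were named. Probe sets in the upper 60% by mean (filter at 4.94) were fitted with limma 3.58.1 in R 4.3.3 as 3 group means over 12 arrays (9 residual degrees of freedom), with two-sided moderated tests and Benjamini-Hochberg adjustment over 18626 probe sets, threshold 0.05. The steps were tested on simulated data. For each gene, the brightest tested probe set by mean stands for it. The number of arrays limits the precision, and arrays carry no read depth.

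Members, classes and lists were chosen with earlier results of these data known. Named genes are the 10 members with the smallest p per comparison, since none passed the threshold, plus 26 listed whatever their values, and up to 3 genes per list of other matrix genes. Adamts8, Mmp15, Loxl3, the untested probe sets named one by one and the genes whose promoters are shown were chosen after their values were seen. Promoters are from RefSeq (GRCr8), matched for 56 of 78 members; all 78 matched a RefSeq gene, and coordinates other than those windows were not used. Alternatives were quantile normalization, median centring, no filter, a filter at the upper 40%, an offset of 32 on the linear scale, trended robust variance, weighted arrays, a fit without the third group, a block for the replicate number, the average over a gene's probe sets, and the omission of each array. Replicate numbers did not pair the arrays. Figures used matplotlib 3.10.9 in Python 3.11.15.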

Additional observations from a re-analysis of the deposited data

Results flagged for a closer look

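Arrays far from the other 3 of their group were looked for in 117 groups of 4 values, over 32 named members and 7 class means. There were 7, and chance flags about 1 in 20 groups. Col25a1 read 6.70 on EX 3, against 6.21 to 6.27 on the other EX arrays. Loxl2 also stood out on EX 3, at 6.01 against 5.26 to 5.32. Col6a1 read 9.45 on SED 1, above 8.97 to 9.05 on the other SED arrays. Mmp2 read 8.98 on SED 3, against 8.44 to 8.53. Timp4 read 7.74 on that same array, below the 8.26 to 8.32 of the others. Col6a6 read 8.58 on PA 1, against 9.09 to 9.17. The mean level of the other collagens was 0.166 above its 12-array mean on PA 4, against -0.0185 to 0.0055 on the other PA arrays.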

How the results depend on the processing

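In all 22 alternatives, 0 member genes had an adjusted p under 0.05 in any comparison, including the replicate block. The number of members at an unadjusted p under 0.05 in EX against SED, 8 as reported, was 16 of 78 genes without a filter, 4 with the stricter filter, 5 with only the 2 groups fitted and 3 with the replicate block, and ranged from 2 to 10 when single arrays were left out. In PA against SED it was 9 without a filter, 2 with array weights and 1 to 5 with single arrays left out; in EX against PA it was 2 without a filter, 0 with the stricter filter and 1 to 2. The share of all genes at an unadjusted p under 0.05 was counted only with all arrays and, against SED, without SED 1. In the other settings the counts of members cannot be set beside it. Without a filter the PA median over all members was -0.041. Mmp17 was not tested under the stricter filter. Replicate numbers did not pair the arrays (correlations of same-numbered deviations from -0.208 to 0.134, over 0.1 in 4 of 12 pairs).

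Of 26 named genes in EX against SED, 19 kept their sign in every alternative run, as did 19 of 27 in PA against SED and 9 of 10 in EX against PA. In EX the sign turned after quantile normalization for Mmp2 (-0.0082), Lox (-0.077) and Col4a1 (-0.076). Col4a1 was also -0.015 with median centring and -0.056 with array weights, and Timp2 was 0.085 with averaged probe sets. In PA, Col1a1 was 0.0144 with array weights and 0.005 averaged, Timp2 was 0.0163 and Lox 0.214 averaged. In EX against PA, Timp2 was 0.069 averaged. With single arrays left out, the EX difference ranged from -0.187 to 0.167 for Timp1, -0.1025 to 0.081 for Col4a1, -0.0275 to 0.226 for Loxl2, -0.0975 to 0.099 for Lox and -0.00083 to 0.0725 for Timp3. The PA difference ranged from -0.0092 to 0.1875 for Col1a2, -0.221 to 0.1525 for Loxl2, -0.265 to 0.0075 for Lox, -0.0067 to 0.19 for Col15a1, -0.0208 to 0.239 for Col18a1 and -0.0217 to 0.468 for Adamts4. The cause of these sign changes was not tested.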
